A study of Mus musculus with 6 samples.

Results

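The genes described here encode endocytic receptors and proteins that carry, take up or desaturate lipids: Lrp2, Cubn, Amn, Apoe, Apob, Fabp3, Fabp5, Scd1, Scd2 and Cd36. They were chosen by name, with their levels in blastocysts and ooplasts already known, and every array probe that carries 1 of the 10 names was taken. That gave 17 probes out of 41174 non-control probes, which carry 27597 gene names in all. Lrp2 and Apob have 4 probes each, Cd36 has 2, and each of the other genes has 1.

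The study measured RNA on 6 single-colour (Cy3) Agilent mouse arrays, 1 sample per array. There were 2 arrays of climacteric blastocysts, 2 of young blastocysts, 1 of climacteric ooplasts and 1 of young ooplasts. An ooplast is an oocyte from which the chromosomes have been removed, and a blastocyst is an early embryo in which trophectoderm encloses a fluid-filled cavity and the inner cell mass. All samples carry the strain label B6C3 F1, climacteric stands for reproductively aged against young, and no treatment is labelled; neither ages in numbers nor the way the blastocysts were produced is given in the labels. The replicates are called biological, but no animals are named, and p-values therefore measure only the spread among these arrays, which may be technical. Each sample is bulk RNA, in which fewer cells of a type and less RNA per cell cannot be told apart.

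Lrp2 encodes megalin, a very large receptor that takes up proteins, vitamins and lipoproteins from the outside of epithelial cells. Cubilin, the product of Cubn, has no membrane-spanning segment of its own and reaches the surface with amnionless, the product of Amn. The 3 proteins work together in the proximal tubule of the kidney and in the visceral endoderm, the nutritive layer that surrounds the early mouse embryo. Apolipoprotein E and apolipoprotein B are carried on lipoprotein particles and are bound by receptors of the LDL receptor family, to which megalin belongs. CD36 is a scavenger receptor that brings long-chain fatty acids into cells, fatty acid binding proteins such as those of Fabp3 and Fabp5 carry them through the cytosol, and the stearoyl-CoA desaturases of Scd1 and Scd2 turn saturated into monounsaturated fatty acids.

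Levels below are log2 of the authors' processed signal minus the 75th percentile of the same array, so that 0 marks a signal equal to that percentile. Well above background is the call of the scanner software for a probe. The 75th percentile was between 721 and 1111 signal units on the blastocyst arrays and 238 and 235 on the climacteric and young ooplast arrays, and between 49.9% and 57.3% of spots were well above background on blastocyst arrays, against 42.2% and 42.4% on the climacteric and young ooplast arrays. Trophectoderm and oocyte markers fitted the labels: all 11 trophectoderm markers were well above background on every blastocyst array, against 4 and 5 on the climacteric and young ooplast arrays. Oocyte markers had a summed linear level, in units of the 75th percentile, of 22.4 to 29.0 on blastocyst arrays and of 6817 and 6923 on the climacteric and young ooplast arrays. By count the stages were less far apart: of 13 oocyte markers 7 to 9 were well above background on each blastocyst array and 12 on each ooplast array. Ooep read 4.49 and 3.90 in climacteric and 3.96 and 3.51 in young blastocysts, against 4.83 in climacteric and 5.46 in young ooplasts. Of 9 primitive endoderm markers, the lineage that gives rise to visceral endoderm, 8 were well above background on each climacteric blastocyst array, and 6 and 8 on the young blastocyst arrays. On the climacteric and young ooplast arrays 5 and 4 of them were. All 6 inner cell mass markers with a probe were well above background on every blastocyst array, against 3 and 4 on the climacteric and young ooplast arrays. Their summed levels overlapped between the stages. The sums were 21.6 to 35.3 on blastocyst arrays and 19.6 and 23.7 on the climacteric and young ooplast arrays. A level is never compared between probes here, since probes differ in brightness, and precision is limited by how few arrays there are.

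The promoters of the 3 receptor genes are given first, because their products form 1 receptor complex while the signals of Lrp2 and Cubn, described below, differed by stage to different extents. Sequences are from RefSeq (GRCm38.p6), on the strand of the gene, from 250 bases before to 50 bases after its start. Of the 10 genes 7 matched the RefSeq table, and Fabp5, Scd1 and Scd2 did not. The window of Lrp2 lies at chr2:69585980-69586279 (minus strand), that of Cubn at chr2:13491827-13492126 (minus strand) and that of Amn at chr12:111270846-111271145 (plus strand). Capitals mark matches, on either strand, to the 7 motifs searched.
Lrp2: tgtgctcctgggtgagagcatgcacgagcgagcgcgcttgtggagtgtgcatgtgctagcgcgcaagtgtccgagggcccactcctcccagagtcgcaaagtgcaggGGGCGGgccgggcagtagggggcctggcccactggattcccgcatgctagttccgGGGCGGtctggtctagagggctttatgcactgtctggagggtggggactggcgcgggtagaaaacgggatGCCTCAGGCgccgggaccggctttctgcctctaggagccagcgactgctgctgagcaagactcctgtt
Cubn: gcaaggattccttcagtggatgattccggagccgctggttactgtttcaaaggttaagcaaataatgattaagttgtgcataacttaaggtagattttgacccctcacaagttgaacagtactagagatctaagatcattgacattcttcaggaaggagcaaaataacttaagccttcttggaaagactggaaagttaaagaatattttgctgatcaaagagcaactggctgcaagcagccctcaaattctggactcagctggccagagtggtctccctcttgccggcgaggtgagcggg
Amn: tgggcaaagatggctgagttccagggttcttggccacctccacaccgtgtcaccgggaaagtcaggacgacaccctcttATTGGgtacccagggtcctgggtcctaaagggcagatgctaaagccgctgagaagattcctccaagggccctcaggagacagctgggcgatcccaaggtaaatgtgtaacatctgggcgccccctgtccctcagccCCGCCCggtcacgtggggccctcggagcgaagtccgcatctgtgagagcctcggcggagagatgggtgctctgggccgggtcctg

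The motifs were the TATA box (TATAAA, in 13.6% of 32851 mouse promoters of this length), the CCAAT box (CCAAT, 37.4%), the GC box (GGGCGG, 35.7%), a GATA motif (GATAAG, 7.44%), a TEAD motif (CATTCC, 14.7%), an AP-2 motif (GCCNNNGGC, 16.6%) and the core of nuclear receptor sites (AGGTCA, 16.3%). The Lrp2 promoter held a pair of GC boxes, 143 and 88 bases before the start, and an AP-2 motif 18 bases before it. The Amn promoter held a CCAAT box 171 bases and a GC box 35 bases before the start, both on the minus strand of the gene. The Cubn promoter held none of the 7. The Lrp2 and Amn windows were rich in CpG, with 20 and 15 CpG dinucleotides and a GC content of 65.0% and 62.3%. The Cubn window had 5 CpG and 44.3% GC, and the median over all promoters was 7 CpG and 52.7%. A match is a description of letters and not of a bound site.

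Lrp2 was far higher in blastocysts than in ooplasts. Because the stage contrast is what chose the genes, its values are a description and carry no test. The brightest of the 4 Lrp2 probes (chromosome 2, 69226430 to 69226489, on the build mm8 used by the files throughout) had levels of 7.07 and 7.57 on the climacteric blastocyst arrays and 7.34 and 7.58 on the young blastocyst arrays, against -1.31 on the climacteric ooplast array and -4.27, not well above background, on the young one. All blastocyst arrays lay far above both ooplast arrays. The blastocyst mean was 7.39 ± 0.24 (SD, n = 4) and the ooplast mean -2.79 ± 2.09 (SD, n = 2), a log2 difference of 10.18. That size rests on the ooplast arrays: it was 8.70 without the young and 11.66 without the climacteric ooplast array.

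The other Lrp2 probes ran the same way. The second probe (69225348 to 69225407), the one closest to the 3′ end of the gene, was well above background on all 6 arrays. It read 5.80 and 6.30 in climacteric blastocysts and 5.93 and 6.42 in young blastocysts, against -0.41 in climacteric and -1.09 in young ooplasts. The groups did not overlap, with a blastocyst mean of 6.11 ± 0.29 (SD, n = 4), an ooplast mean of -0.75 ± 0.48 (SD, n = 2) and a log2 difference of 6.87. The third probe (69308666 to 69308811), 83318 bases upstream of the 3′-most probe, read 0.68 and 0.59 in climacteric and -0.93 and 0.29 in young blastocysts, and was not well above background in ooplasts (-4.12 climacteric, -4.34 young). It was at least 5.30-fold higher in blastocysts. Here and below, "at least" sets the mean of the brighter group against, on each dim array, the lowest signal among probes well above background there or the probe's own signal if that is higher. The fourth probe (69237574 to 69238311) was well above background on 3 of the 4 blastocyst arrays and on neither ooplast array, with a log2 difference of 1.62 that rests on signals at background. The exon structure under these probes was not analysed here, as no annotation of mm8 was used.

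Cubn, the partner of megalin, showed no separation of the stages. Its probe (chromosome 2, 13194214 to 13194273) was well above background on all 6 arrays. Levels were 2.21 and 0.06 in climacteric blastocysts and 1.35 and 0.52 in young blastocysts, against 1.65 in climacteric and -0.72 in young ooplasts. The climacteric ooplast array lay above 3 of the 4 blastocyst arrays and the young one below all of them. The blastocyst mean was 1.03 ± 0.95 (SD, n = 4) and the ooplast mean 0.46 ± 1.68 (SD, n = 2), a log2 difference of 0.57 that was -0.61 without the young and 1.76 without the climacteric ooplast array.

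Amn, which anchors cubilin in the membrane, was dim. Its probe (chromosome 12, 111723692 to 111723840) read -1.35 and -1.51 in climacteric blastocysts and -1.51 and -2.47 in young blastocysts, all well above background. The ooplast arrays, at -2.31 (climacteric) and -3.13 (young), were not. The second young blastocyst array lay between the ooplast arrays, so the stages overlapped. The log2 difference was 1.01, and the bound was at least 1.45-fold higher in blastocysts. With another background correction (normexp) the difference turned to -0.15.

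Apoe was bright on every array and higher in blastocysts. Its probe (chromosome 7, 18854905 to 18854964) is printed on 10 spots of each array, whose log2 values had an SD between 0.05 and 0.08 within an array, so that spot error is small beside the differences between arrays. Levels were 6.62 and 6.23 in climacteric blastocysts and 6.26 and 5.74 in young blastocysts, against 4.66 in climacteric and 2.82 in young ooplasts. The stages did not overlap, and the ooplast arrays lay further from each other than any pair of blastocyst arrays. The blastocyst mean was 6.21 ± 0.36 (SD, n = 4) and the ooplast mean 3.74 ± 1.31 (SD, n = 2), a log2 difference of 2.47 (5.55-fold). It was 1.55 on the log2 scale without the young and 3.40 without the climacteric ooplast array.

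Apob, whose protein is the backbone of chylomicrons, VLDL and LDL, was at background. The brightest of its 4 probes (chromosome 12, 8042336 to 8042395) read -3.63 on the first climacteric blastocyst array, where it was well above background, and -3.88 on the second. It read -4.13 and -4.10 in young blastocysts, -4.26 in climacteric ooplasts and -4.43 in young ooplasts, none of them well above background. The other 3 probes (8024684 to 8026893, 8042396 to 8042455 and 8037943 to 8038002) were well above background on no array. Apob was therefore left out of every comparison, and its signals at background are read for no stage or age difference.

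**Figure D1:**
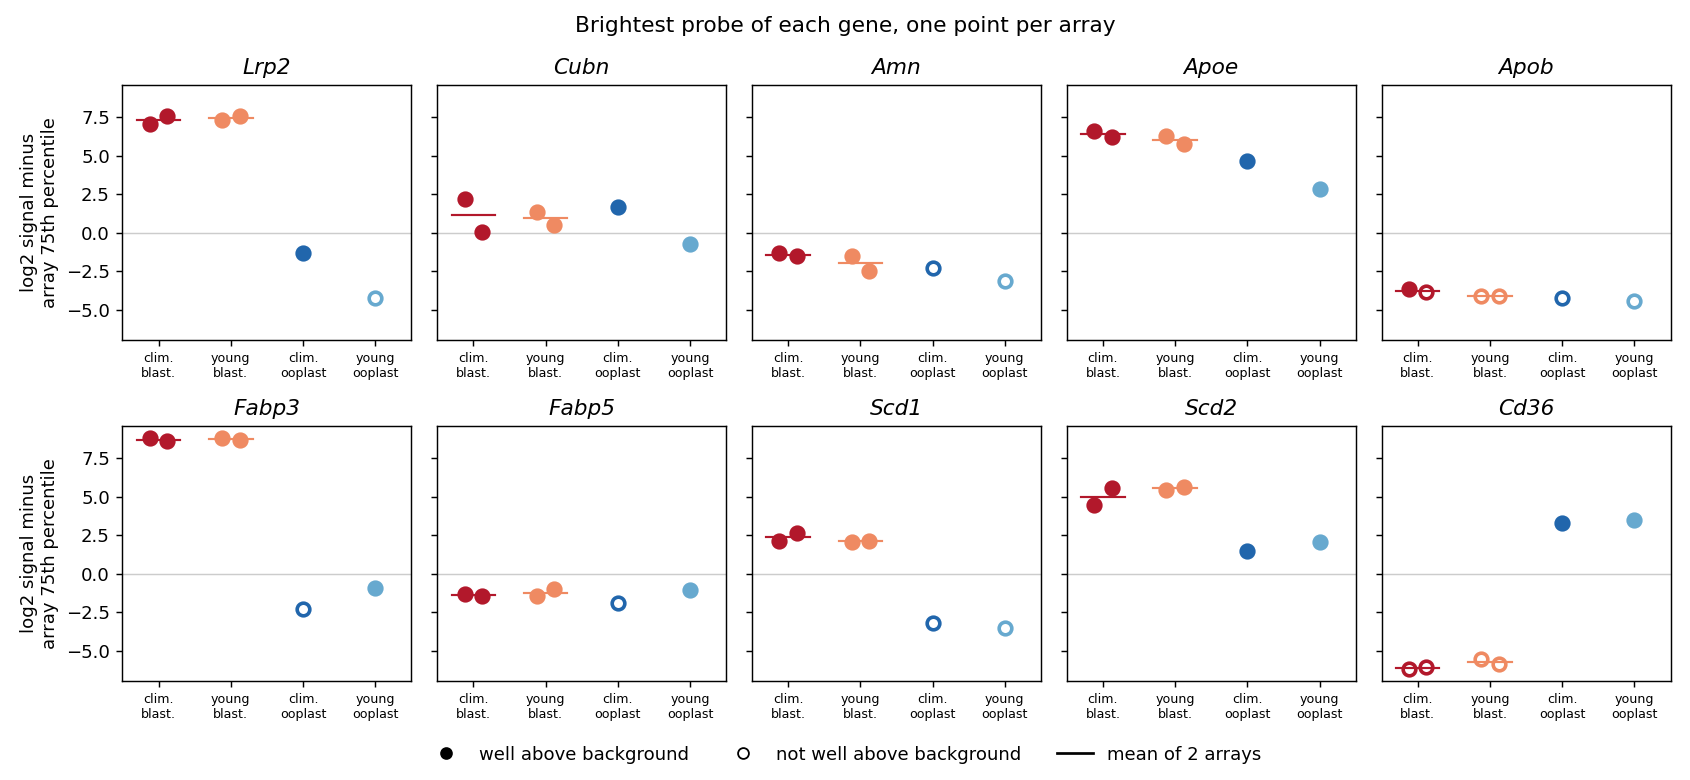
Level of the brightest probe of each gene (log2 signal minus the 75th percentile of the array, vertical axis, same scale in all panels) on every array, by group. Filled points are well above background, open points are not, and bars are means of 2 arrays; Lrp2, Apoe, Fabp3, Scd1 and Scd2 lie higher in all 4 blastocyst samples than in the 2 ooplast samples, and Cd36 lies lower.

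Fabp3 was far higher and Cd36 far lower in blastocysts, and their promoters are printed for that contrast. The window of Fabp3 lies at chr4:130308488-130308787 (plus strand) and that of Cd36 at chr5:17835847-17836146 (minus strand), with capitals as above.
Fabp3: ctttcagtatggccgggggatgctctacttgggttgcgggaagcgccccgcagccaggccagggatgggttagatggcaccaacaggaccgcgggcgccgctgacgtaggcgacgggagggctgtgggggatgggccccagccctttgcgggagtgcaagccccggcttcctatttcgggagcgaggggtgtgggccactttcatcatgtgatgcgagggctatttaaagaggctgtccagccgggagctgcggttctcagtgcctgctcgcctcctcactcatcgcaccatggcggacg
Cd36: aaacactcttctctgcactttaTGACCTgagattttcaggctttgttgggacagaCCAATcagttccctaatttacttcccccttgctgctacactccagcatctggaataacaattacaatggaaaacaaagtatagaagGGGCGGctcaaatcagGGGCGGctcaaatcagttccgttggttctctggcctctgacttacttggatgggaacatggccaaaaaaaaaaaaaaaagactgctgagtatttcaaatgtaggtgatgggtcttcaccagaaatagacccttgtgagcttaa

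The Fabp3 window had 22 CpG, 65.0% GC and none of the 7 motifs. The Cd36 window had 3 CpG and 43.0% GC, with GC boxes 109 and 93 bases, a CCAAT box 195 bases and a nuclear receptor core, on the minus strand of the gene, 228 bases before the start. No match says only that these letters are not in this window.

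Fabp3, the heart-type fatty acid binding protein, was bright in blastocysts. Its probe (chromosome 4, 129817668 to 129817727) read 8.81 and 8.63 in climacteric and 8.84 and 8.69 in young blastocysts, against -2.28 in climacteric ooplasts, not well above background, and -0.92 in young ooplasts. The blastocyst arrays lay close together and far above both ooplast arrays. The blastocyst mean was 8.74 ± 0.10 (SD, n = 4), with a log2 difference of 10.34 that became 11.03 without the young and 9.66 without the climacteric ooplast array.

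Fabp5, the epidermal-type family member, behaved otherwise. Its probe (chromosome 3, 9998905 to 9998964) read -1.31 and -1.44 in climacteric and -1.45 and -0.98 in young blastocysts, against -1.91 (not well above background) in climacteric and -1.02 in young ooplasts. The young ooplast array lay among the blastocyst arrays. Blastocysts averaged -1.30 ± 0.22 (SD, n = 4) and ooplasts -1.47 ± 0.63 (SD, n = 2), and the log2 difference of 0.17 turned to -0.026 when arrays were scaled on probes detected everywhere and to -0.27 with normexp.

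Cd36 was the gene of the 10 that was at least 2-fold lower in blastocysts. Its brighter probe (chromosome 5, 17295116 to 17297548) read -6.19 and -6.04 in climacteric and -5.52 and -5.86 in young blastocysts, none well above background, against 3.29 in climacteric and 3.49 in young ooplasts. The ooplast arrays lay near each other and far above all blastocyst arrays, which gives a level at least 138-fold lower in blastocysts. The second probe (17294606 to 17294665), 510 bases away, read -4.33 and -3.79 in climacteric and -4.20 and -2.98 in young blastocysts, against -1.84 in climacteric and -2.06 in young ooplasts. Only the last of these blastocyst values was well above background, and the log2 difference was -1.88. Cd36 is also a gene of endothelial cells, of whose 7 markers 4 to 5 were well above background on each blastocyst array and 5 and 4 on the climacteric and young ooplast arrays. Kdr (0.86 in climacteric and 1.56 in young ooplasts), Tek (0.52 and 0.84), Cldn5 (-1.81 and 0.50) and Esam were measured on both ooplast arrays and were higher there than on every blastocyst array, the direction of Cd36. Neither ooplast array had Cdh5 or Emcn well above background, and Pecam1 was so on the climacteric one alone. Cdh5 ran the other way from Cd36. It was well above background on every blastocyst array, at -3.09 and -2.62 in climacteric and -2.36 and -2.58 in young blastocysts. The ooplast arrays read -4.04 (climacteric) and -4.24 (young) for Cdh5. The summed endothelial level was 3.82 to 70.7 on blastocyst arrays, 177 in climacteric ooplasts and 730 in young ooplasts, most of the ooplast sums from Esam. The part of these markers in the Cd36 values was not tested.

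Both desaturase genes were higher in blastocysts. Scd1 (chromosome 19, 44448208 to 44448267) read 2.12 and 2.64 in climacteric and 2.06 and 2.15 in young blastocysts, and was not well above background in climacteric (-3.18) or young (-3.54) ooplasts. All blastocyst arrays lay above both ooplast arrays, and by its mean Scd1 was at least 22.5-fold higher in blastocysts. Scd2 (chromosome 19, 44359845 to 44359904), the isoform known from brain and early mouse development, was measured on all 6 arrays. It read 4.47 and 5.56 in climacteric and 5.43 and 5.67 in young blastocysts, against 1.50 in climacteric and 2.05 in young ooplasts. The groups did not overlap, with a blastocyst mean of 5.28 ± 0.55 (SD, n = 4), an ooplast mean of 1.78 ± 0.39 (SD, n = 2) and a log2 difference of 3.51 (11.4-fold).

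By stage, 9 of the 10 genes passed the filter on dim probes, which asks that, in at least 1 stage, a probe be well above background on each array. Of these, 6 stood at least 2-fold higher in blastocysts by their means (Lrp2, Amn, Apoe, Fabp3, Scd1 and Scd2, with Amn only by a signal at background in ooplasts), against 35% of the 15605 genes in that comparison. Cd36 stood at least 2-fold lower, as did 35.7% of those genes. Cubn and Fabp5 were in between. These counts follow from how the genes were chosen. Over all genes the median stage difference was -0.26, and it lay between -0.46 and -0.14 under the scalings tried.

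**Figure D2:**
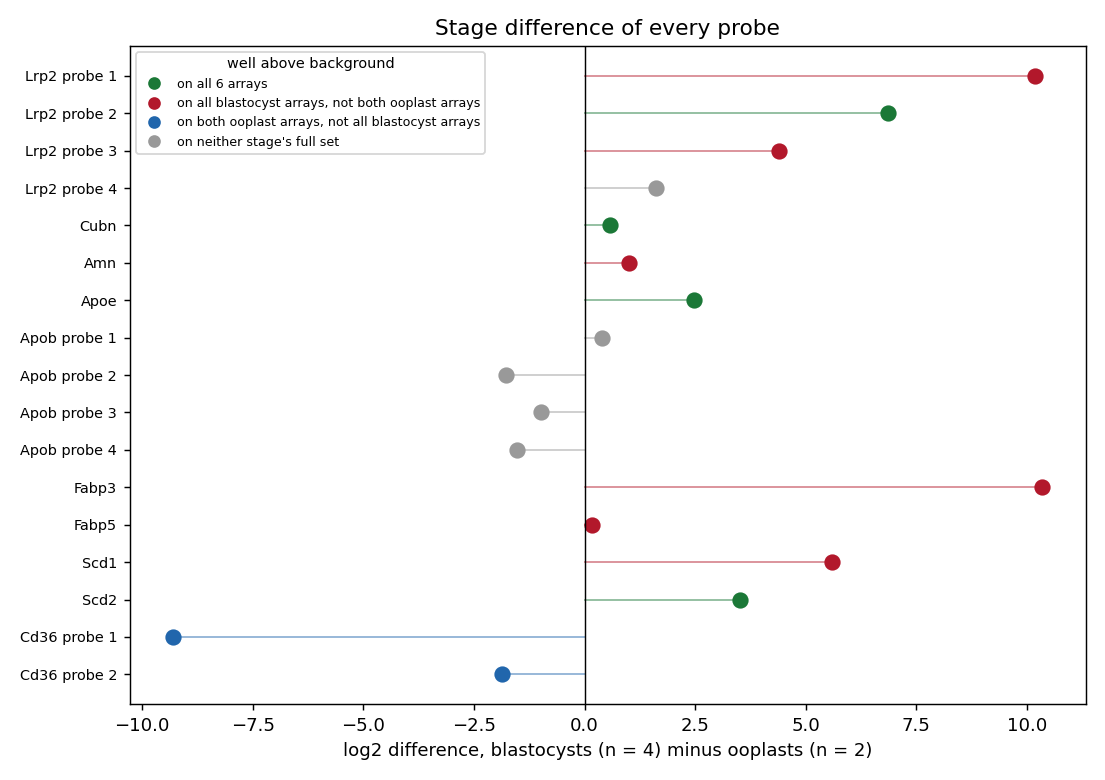
Log2 difference, blastocysts (n = 4) minus ooplasts (n = 2), of each of the 17 probes, coloured by the stages in which the probe was well above background. The 4 Lrp2 probes lie between 1.62 and 10.18, the Cd36 probes at -9.30 and -1.88, and the Apob probes were measured in neither stage's full set.

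Age was compared within blastocysts, climacteric against young, which is a contrast that did not choose the genes. None of the 8 genes that could be tested differed past the threshold of an adjusted p of 0.05 (limma, 2 against 2 arrays, Benjamini-Hochberg over 15971 genes); the adjusted p was 0.9999 for each. Over all genes 0% passed that threshold. On simulated data this fit called none of the changed genes, so these counts do not show that the ages are alike. By the probe that stood for each gene, none of the 8 had an unadjusted p under 0.05 in limma, against 5.41% of all genes. None was 2-fold apart on that probe, against 6.71%. In all 8 the ages overlapped on that probe, while 16.2% of genes lay higher and 13.8% lower in climacteric blastocysts without overlap. The third Lrp2 probe did not follow this: its climacteric values (0.68 and 0.59) lay above its young ones (-0.93 and 0.29). Cd36 and Apob were not tested, as neither was well above background on all arrays of either age.

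The intervals say how large an age difference these arrays leave room for. Fabp3 was the gene with the narrowest one, at -0.04 ± 0.28 (SE) on the log2 scale with a 95% interval of -0.75 to 0.68. Lrp2 had a difference of -0.14 ± 0.32, interval -0.96 to 0.67. Scd1, at 0.28 ± 0.32, had an interval of -0.53 to 1.08, and that of Fabp5, at -0.16 ± 0.31, was -0.95 to 0.63. Of these 4 intervals that of Scd1 alone reached past 1 log2 unit. The wider ones were those of Apoe (0.43 ± 0.34, interval -0.44 to 1.29), Amn (0.56 ± 0.41, -0.47 to 1.59), Scd2 (-0.53 ± 0.44, -1.65 to 0.58) and Cubn (0.20 ± 0.77, -1.75 to 2.15). Cubn was the least certain, because its climacteric arrays, at 2.21 and 0.06, lay on either side of both young arrays. For Scd2 the first climacteric array, at 4.47, lay below the other 3, and without it the difference was 0.010. The direction of the small differences was not stable: 4 were above and 4 below 0, and leaving out 1 array turned the sign of Lrp2, Cubn, Fabp3, Fabp5 and Scd2.

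**Figure D3:**
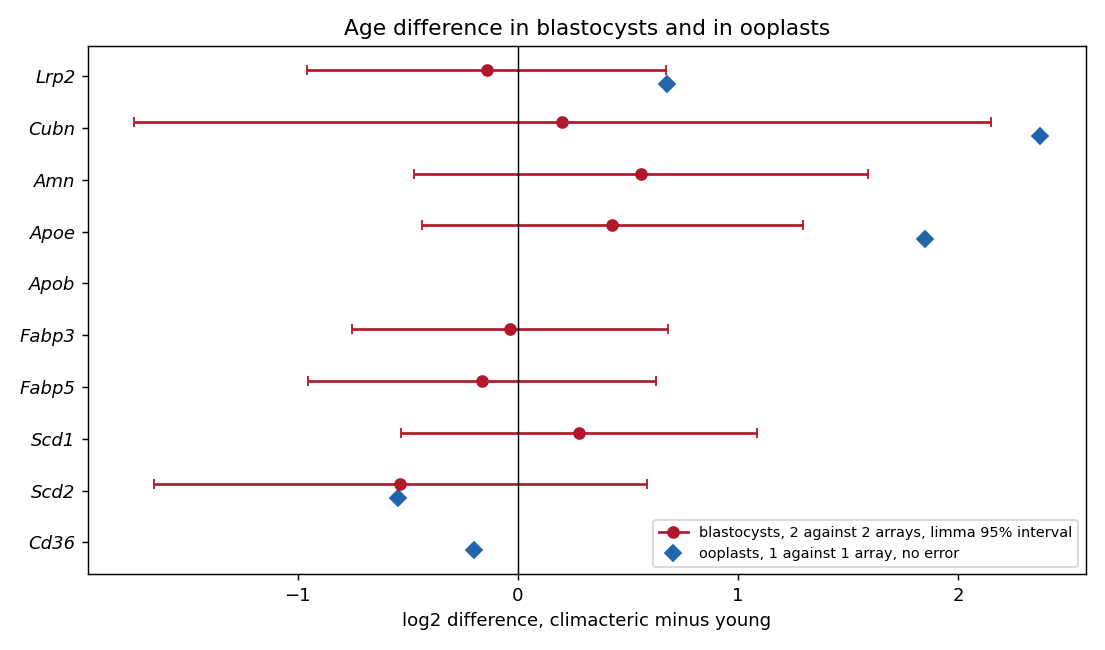
Log2 difference, climacteric minus young, for each gene: circles with 95% intervals for blastocysts (2 against 2 arrays, limma) and diamonds for ooplasts (1 against 1 array, no error). Every blastocyst interval includes 0; Cubn and Apoe have the largest ooplast differences, and Apob has no value.

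Ooplasts of the 2 ages are 1 array each, so their differences have no replicate check and no test. Of the 10 genes 5 were measured, that is well above background, on both arrays, and 2 of these, Cubn and Apoe, were at least 2-fold apart, against 17.2% of the 12291 genes measured on both. Cubn read 1.65 in climacteric and -0.72 in young ooplasts, 5.17-fold higher in climacteric ooplasts. Apoe read 4.66 in climacteric and 2.82 in young ooplasts, 3.60-fold higher in climacteric ooplasts. The median over all genes was 0.15 on the log2 scale, and 0.10 to 0.30 under the scalings tried, so neither difference is near that shift. Lrp2, by the probe measured on both arrays, was 1.60-fold higher and Scd2 1.46-fold lower in climacteric ooplasts, and Cd36 differed by -0.20 on the log2 scale, a sign that turned with quantile normalization. For genes measured on 1 of the ooplast arrays only bounds are available. The brightest Lrp2 probe was at least 1.99-fold higher, Fabp3 at least 2.43-fold lower and Fabp5 at least 1.86-fold lower in climacteric ooplasts. Amn, Apob and Scd1 were measured on neither.

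Apoe is also a gene of macrophages, and macrophage markers were not even across the arrays. Their summed level, over 20 markers, was 43.7 and 4.88 on the first and second climacteric blastocyst arrays, 5.11 and 5.15 in young blastocysts, 58.0 in climacteric ooplasts and 11.3 in young ooplasts. The arrays with the high sums, climacteric ooplasts and the first of climacteric blastocysts, are those on which Apoe and Cubn were highest within their stage. The same held for Amn and the third Lrp2 probe, though their ooplast signals were not well above background. It did not hold for the brightest probes of Lrp2, Fabp3, Fabp5, Scd1, Scd2 and Cd36. On the arrays with the high sums 12 (climacteric blastocysts, replicate 1) and 13 (climacteric ooplasts) of the 20 markers were well above background, against 7 to 10 on each other array. Lyz2, the lysozyme of macrophages and neutrophils, read 5.07 on the first climacteric blastocyst array and 3.94 on the climacteric ooplast array, and was not well above background on the other 4. On the first climacteric blastocyst array most of the sum came from Lyz2, and Ctss read 1.73. Adgre1, Ptprc, C1qa, Itgam, Mrc1, Aif1, Cd53 and Msr1 were not well above background on that array. On the climacteric ooplast array Fcer1g (3.84), Ctss (2.51), C1qc (2.19), Adgre1 (0.89), Csf1r (0.87), Tyrobp (0.38) and Aif1 (-0.53) were well above background too. On the young ooplast array Fcer1g read 0.28 and Csf1r -0.58, and the other 5 of these were not well above background. Further markers passed that call in ooplasts of either age. Marco read 3.14 in climacteric and 2.66 in young ooplasts, where it made up most of the sum. In the same order Cx3cr1 read -1.22 and -1.57, Cd14 -0.68 and -1.46, and Cd68 -0.26 and -1.72. C1qb ran the other way, at -0.17 in climacteric and 0.07 in young ooplasts. Ptprc, Itgam, Mrc1, Cd53, Msr1, C1qa and Laptm5 were at background on both ooplast arrays. Without the first climacteric blastocyst array the age difference in blastocysts was 0.23 for Apoe and -0.88 for Cubn on the log2 scale. Both genes were highest among blastocysts on that array, so leaving it out had to lower both differences. The part of the macrophage markers in the Apoe and Cubn values was not tested. Of 15 cumulus and granulosa markers 7 to 9 were well above background on each blastocyst array, with sums of 22.7 to 26.5, and 8 on each ooplast array, with sums of 97.2 in climacteric and 99.9 in young ooplasts. Cyp19a1 (6.22 in climacteric and 6.30 in young ooplasts), Hsd3b1 (3.05 and 2.81), Amh (2.54 and 2.12) and Inhba (-0.78 and -0.15) were above it on both ooplast arrays and higher there than on every blastocyst array. Tnfaip6 read -1.03 in climacteric and 1.15 in young ooplasts, and Fshr, Lhcgr, Has2, Star, Cyp11a1 and Kitl were at background on both. Amhr2 and Inhbb ran the other way. Amhr2 read 2.94 and 3.66 in climacteric and 3.15 and 4.05 in young blastocysts. It read -2.26, not well above background, in climacteric and -1.87 in young ooplasts. Inhbb read 3.40 and 2.27 in climacteric and 3.03 and 2.42 in young blastocysts, against 1.46 in climacteric and 1.73 in young ooplasts. Fshr, Has2 and Cyp11a1 were well above background on some blastocyst arrays. The part of cumulus and granulosa RNA in any stage or ooplast difference was not tested.

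The other genes of these pathways were read from 8 lists with 169 genes, none of them among the 10. By stage (limma, all 6 arrays, age as a term) 130 could be tested, of which 63 rose and 32 fell in blastocysts, against 35.5% higher and 39% lower of the 15605 genes tested. The median log2 difference over the lists was 0.76, against -0.26 over all genes. By age in blastocysts none of 135 passed in limma, as none of all genes did. An unadjusted p under 0.05 (limma) was found for 10 of the 135, against 5.41% of all genes. Between ooplasts 11 of 107 were at least 2-fold higher and 9 at least 2-fold lower in climacteric ones, against 7.36% and 9.86% of all genes measured on both arrays.

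Among adaptors and relatives of the receptors 11 of 24 rose and 7 fell, with a median of 1.03. Over the 17 measured on every array 7 rose and 6 fell. Their median was 0.19, against -0.57 over all genes measured on every array. Lrpap1, the chaperone that keeps ligands off megalin while it is folded, rose by 8.27 ± 0.30 (log2, SE; adjusted p = 9.28e-06, limma), with a blastocyst level of 6.45 ± 0.32 (SD, n = 4) and an ooplast level of -1.81 ± 0.14 (SD, n = 2). Its second probe differed by 5.63. Ap2b1, a subunit of the clathrin adaptor AP-2, rose by 5.96 ± 0.27, though its second probe gave 1.94. Lrp1, another very large receptor of the family, fell by 4.87 ± 0.80, with a wide spread of 1.48 ± 1.88 in blastocysts and 6.35 ± 2.37 in ooplasts, and its second probe, measured on 1 array, differed by -0.54. The sorting receptor genes ran lower in blastocysts: Sort1 fell by 3.32 ± 0.50 and Sorl1 was at least 5.09-fold lower. The other Sort1 probes differed by -3.88 and -1.33 (measured on all 6 arrays) and by -3.38 (measured on 4). Of 13 ligand genes 5 could be tested, and 3 rose and 1 fell. Their median of 1.17 turned to -1.10 without the young ooplast array and to -0.54 without the climacteric one, when 7 could be tested. It was -0.66 with the mean of all probes, -0.82 over the 3 genes measured on every array and -1.09 with no filter, so it gives no direction for the list. Apom, a lipocalin of lipoproteins, was at least 8.0-fold higher, Ctsb, the protease cathepsin B, rose by 1.17 ± 0.38 (its other probe, measured on 3 arrays, gave -2.49), and Clu, clusterin, fell by 1.25 ± 0.27.

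Of the apolipoprotein and lipoprotein genes 5 of 10 rose and 3 fell. Over the 9 measured on every array 4 rose and 3 fell, with a median of -0.12. Apoc1, a neighbour of Apoe in the same gene cluster, rose by 7.44 ± 0.29 (adjusted p = 1.02e-05, limma), with levels of 8.58 ± 0.15 in blastocysts and 1.14 ± 0.57 in ooplasts, and Apoc2 of that cluster rose by 1.73 ± 0.30. The cholesterol exporters ran opposite ways: Abca1 was at least 3.52-fold higher and Abcg1 fell by 4.27 ± 0.26. The HDL receptor gene Scarb1 fell by 1.70 ± 0.42. Without the first climacteric blastocyst and the climacteric ooplast arrays, which carry the high macrophage sums, the median was 0.45, against 0.31 with all arrays. It was also 0.45 without the climacteric ooplast array alone. With age as a term and no climacteric ooplast array left, the climacteric blastocyst arrays do not enter the stage estimate. Leaving out the pair therefore shows the effect of the ooplast array only, in every list. This setting was chosen after seeing the data. It leaves 1 ooplast array, so that fewer genes can pass the threshold, and only medians are given for it.

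Fatty acid binding, uptake and activation genes went both ways, with 7 of 17 higher and 6 lower and a median of 0.28. Over the 10 measured on every array 1 rose and 5 fell, with a median of -1.09. Within the binding protein family Fabp12 rose by 2.63 ± 0.33 and Fabp4, the adipocyte form, was at least 10.5-fold higher, with another probe, measured on 4 arrays, at 2.00 on the log2 scale. Fabp9, the testis form, fell by 4.72 ± 0.80 and Fabp7, the brain form, was at least 18.3-fold lower. Acsl3, which activates fatty acids at lipid droplets, fell by 2.68 ± 0.26 (adjusted p = 0.000166, limma). Of the synthesis, elongation and desaturation genes 7 of 20 rose and 5 fell. Fasn, fatty acid synthase, rose by 2.58 ± 0.44 (1.79 on its other probe, measured on 4 arrays) and Hacd3 by 2.15 ± 0.27. Acss2, which makes acetyl-CoA from acetate, was at least 7.35-fold higher on its brightest probe, though others, measured on 5 and 4 arrays, differed by 0.08 and 2.24. Elovl5 fell by 1.40 ± 0.25 (-2.88 on its other probe), Fads6 by 1.07 ± 0.26, and Hacd4 was at least 23.8-fold lower. Scd3, another desaturase gene named here after its values were seen, fell by 4.31 ± 0.49 (adjusted p = 0.000339, limma), opposite to Scd1 and Scd2. It read -0.95 and -1.48 in climacteric and -2.60 and -3.78 in young blastocysts, against 2.35 in climacteric and 1.87 in young ooplasts. The last blastocyst value was not well above background, so the size of the fall rests in part on background.

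Fatty acid oxidation was the list with the most even direction: 17 of 21 genes rose, none fell, and the median log2 difference was 2.86. Acaa2, a mitochondrial thiolase, rose by 6.20 ± 0.31 (adjusted p = 1.55e-05, limma), with levels of 6.89 ± 0.28 in blastocysts and 0.68 ± 0.34 in ooplasts. Etfdh, which passes electrons from fatty acid oxidation to the respiratory chain, rose by 4.74 ± 0.30, with a second probe, measured on 1 array, at -0.09. Acads, the short-chain acyl-CoA dehydrogenase, was at least 2.24-fold higher. Under the other scalings 15 to 17 rose, with medians of 2.67 to 2.86; 1 gene fell where each probe was its own row or had to be measured on every array. Without the pair of arrays with high macrophage sums the median was 2.70, as it was without the climacteric ooplast array alone.

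Lipid storage genes were mixed, with 10 of 23 higher and 7 lower. Cidea, a lipid droplet fusion protein, was at least 315-fold higher in blastocysts. Of the perilipins, coat proteins of droplets, Plin3 rose by 4.13 ± 0.35 and Plin5 by 3.15 ± 0.63, and Plin1 fell by 1.70 ± 0.26. Bscl2, seipin, fell by 2.40 ± 0.26. Without the arrays with high macrophage sums the median was 0.41, against -0.20 with all arrays. For the reason given above, it was 0.41 too without the climacteric ooplast array alone. Of the 10 transcription regulators 3 rose and 3 fell. Srebf1, a regulator of lipid synthesis genes including Scd1 in liver, rose by 3.90 ± 0.27 and Rxra by 3.56 ± 0.37, though a second Rxra probe measured on all 6 arrays differed by 1.28. Pparg, a known activator of Cd36 in macrophages and fat cells, fell by 5.89 ± 0.25 (adjusted p = 1.15e-05, limma), with a blastocyst level of -1.80 ± 0.25 (SD, n = 4) and an ooplast level of 4.08 ± 0.47 (SD, n = 2). Ppara was at least 8.72-fold lower, and Nr1h2 fell by 0.92 ± 0.33 (adjusted p = 0.0413, limma).

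**Figure D4:**
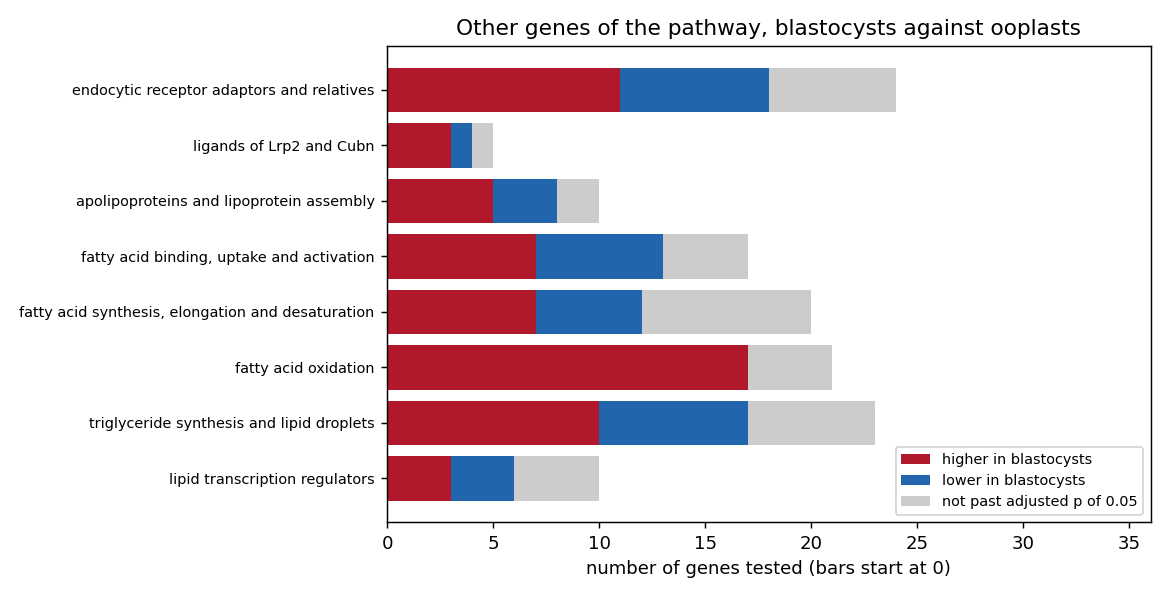
Number of genes of each list tested between blastocysts and ooplasts (horizontal axis) that were higher, lower or not past the adjusted p of 0.05 (limma). Fatty acid oxidation holds 17 higher and 0 lower of 21, and the other lists hold genes in both directions.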

How the data were processed

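RNA of 4 blastocyst and 2 ooplast samples was column-purified without DNase, amplified and Cy3-labelled, per the labels' protocols. The deposited intensity values are the processed signal of the scanner software (Agilent Feature Extraction 9.5 by the submitters' processing notes), background-subtracted and not scaled between arrays, per the file headers. Other columns used are the software's flags (background, saturation, outlier), per the file headers. The value table that the authors deposited is in log2 and equals a quantile normalization of the processed signal within 5.0e-07 (each column's median is 6.25), so its scale is known; it served as an alternative.

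Levels are log2 processed signal minus the 75th percentile of that array (control spots left out), with spots of a probe averaged and outlier-flagged spots left out. A probe had to be well above background on each array of 1 or more of the groups compared, and the brightest such probe stood for its gene. Genes other than the 10 were named through RefSeq (GRCm38.p6): 24361 probes by accession, 6298 by symbol and 2426 by synonym, and 8072 kept the file's name. Coordinates of probes are mm8. limma 3.58.1 in R 4.3.3 (lmFit, eBayes, two-sided, Benjamini-Hochberg) compared ages in the 4 blastocyst arrays, and stages over all 6 arrays with age as a term. Ooplast ages (1 array each) were not tested. The fits were first tested on simulated data. Promoters and figures were made in Python 3.11.15.

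The genes and lists were chosen with earlier results of these data known. From each list the text names up to 2 genes with the largest rise and 2 with the largest fall past the threshold among those measured on all 6 arrays, plus 1 bound in each direction; 1 gene that this rule names is not reported here. Replicate numbers coincide with the 2 slides for blastocysts (slide 1 also holds both ooplast arrays), and replicate deviations correlated at 0.17 over 2 pairs, so the numbers were not taken to pair samples. Alternatives comprised normexp (offset 50), quantile normalization, a 75th percentile over probes detected throughout, the authors' values, other filters and probe rules, slide and replicate blocks, and each array left out.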

Additional observations from a re-analysis of the deposited data

Results flagged for a closer look

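Among the 4 blastocyst arrays, Amn had 1 array far from the other 3: the gap of the second young blastocyst array (-2.47) to its nearest neighbour was 0.857 of the whole range. Scd1 had the second climacteric blastocyst array (2.64) set apart in the same way, with a gap of 0.85 of the range. Chance alone sets apart about 1 in 20 groups by this measure.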

How the results depend on the processing

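No gene of the 10 passed for age in blastocysts under any alternative, which in so small a design says nothing about stability. The count over all genes was 0 under every setting except leaving out either young blastocyst array, which gave 1 (range 0 to 1 with each array left out); 668 to 1241 genes had an unadjusted p under 0.05 in limma, and 865 to 1310 with an array left out. With the replicate number as a block 0 genes passed, and the replicate block changed no call. The lists' 63 higher and 32 lower genes were 52 to 60 and 24 to 33 with an array left out, and 54 were lower with no filter on dim probes. The count of genes at least 2-fold higher in blastocysts, 6 of the 10, was 3 when a signal well above background was required on every array and 5 to 7 with an array left out. The count at least 2-fold apart between ooplasts, 2, was 4 with no filter.

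Stage differences changed sign with normexp for Amn (-0.15) and Fabp5 (-0.27), with scaling on probes detected on all arrays for Fabp5 (-0.026), and with an array left out for Cubn (-0.61 to 1.76) and Fabp5 (-0.28 to 0.62). Apob, at background and untested, gave signals 0.40 apart and -0.95 apart with normexp, from which no direction is read. The Cd36 difference between ooplasts was 0.023 with quantile normalization and 0.046 in the authors' values. Age differences in blastocysts changed sign for Fabp3 with quantile normalization (0.060), detected-probe scaling (0.12) and the authors' values (0.047), and for Lrp2 with detected-probe scaling (0.015). With an array left out they ranged from -0.39 to 0.10 for Lrp2, from -0.88 to 1.28 for Cubn, from -0.13 to 0.052 for Fabp3, from -0.40 to 0.072 for Fabp5 and from -1.08 to 0.010 for Scd2. The cause of these changes was not tested. Without the arrays with high macrophage sums (chosen after seeing the data) the synthesis list had a median of 0.36, against 0.30 with all arrays. Its median was 0.36 too without the climacteric ooplast array alone. Signal near background limits Amn, Apob, Fabp5, Scd1 in ooplasts and Cd36 in blastocysts.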
